A study of Drosophila melanogaster with 3 samples.

Results

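The 5 GATA factor genes of Drosophila analysed here (srp, pnr, grn, GATAd and GATAe) and the cofactor gene u-shaped (ush) were examined for occupancy by Vrille. These 6 genes were taken by name from the 13945 protein-coding genes on the 6 main chromosome arms. Each was credited with every peak whose summit lay in the gene or within 1 kb of it, which gave 33 of the 9264 summits of the optimal list, the authors' set of peaks that passed their reproducibility threshold. The libraries were chromatin immunoprecipitations with an antibody against GFP from whole animals collected as white prepupae, the stage that opens metamorphosis. The animals were of mixed sex and came from a stable transgenic line carrying vri with GFP fused at the C terminus of its protein. There were 3 biological replicates of this 1 group, with no untagged line, other stage or mutant among the samples analysed here. Because whole animals were used, strong occupancy in few cells and weak occupancy in many cannot be told apart, and no value is assigned to a tissue.

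Vrille is a bZIP protein known as a repressor in the circadian clock and as a regulator of development. GATA factors are zinc-finger proteins that bind short sites with GATA at their core and direct cell fate in blood, fat body, heart, gut and epidermis. Ush, the fly member of the Friend of GATA family, is a multi-zinc-finger protein that is recruited through GATA factors and changes whether they activate or repress. Serpent (srp) acts in blood cells, fat body and early endoderm, Pannier (pnr) in the heart and the dorsal epidermis and thorax, and Grain (grn) in the posterior spiracles and some motor neurons. GATAe maintains the gene program of the midgut, and GATAd is the least studied of the 5.

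Occupancy was high at ush, intermediate at GATAd and lower at the other 4 genes, whose highest peaks had means between 1.02 and 1.61 times the genome's median optimal peak. The signal of a peak in each replicate was divided by the median of that replicate over the optimal peaks, which was 81.4 in replicate 1, 46.8 in replicate 2 and 78.5 in replicate 3. A relative signal of 1 is therefore a typical optimal peak. The 6 genes were chosen by name with the signals of peaks in these same lists known, so their levels are given as description, with no test. The highest peak of ush had a relative signal of 17.6 ± 0.957 (SD, n = 3), that of GATAd 5.58 ± 1.46, that of srp 1.61 ± 0.321 and that of GATAe 1.496 ± 0.267. The only peak of pnr had 1.07 ± 0.249 and the only peak of grn 1.02 ± 0.798. The replicate ranges of ush and GATAd overlapped with no other gene of the 6, whereas those of srp, GATAe, pnr and grn overlapped with one another, so no order is given among these 4. Over the 4733 genes with an optimal summit, the median highest peak was 1.37. A lower highest peak than at ush was found at 99.9% of these genes, than at GATAd at 96.5%, than at srp at 59.1%, than at GATAe at 55.3%, than at pnr at 35.8% and than at grn at 32.7%.

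The bases around the summits that carry these results are printed for the dm6 assembly, as RefSeq gives it. Each run is an optimal summit with 50 bases to each side, on the forward strand, written 5′ to 3′. Capitals mark a GATA box or a C/EBP site on either strand. GATA box here means GATA with A or T before it and A or G after it, and C/EBP site means TTACGCAA, TTACGTAA, TTGCGCAA or TTGCGTAA. The highest peak of each gene is shown because its height was used to compare the genes. A pair of further ush windows shows the most GATA boxes within 25 bp of a ush summit and the only C/EBP site.
ush highest peak (chr2L:481006-481106, + strand): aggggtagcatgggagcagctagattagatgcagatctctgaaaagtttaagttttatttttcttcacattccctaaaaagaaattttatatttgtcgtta
ush paired GATA boxes (chr2L:484843-484943, + strand): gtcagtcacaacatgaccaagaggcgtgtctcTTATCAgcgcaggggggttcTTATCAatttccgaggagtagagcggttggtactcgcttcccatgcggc
ush C/EBP site (chr2L:514445-514545, + strand): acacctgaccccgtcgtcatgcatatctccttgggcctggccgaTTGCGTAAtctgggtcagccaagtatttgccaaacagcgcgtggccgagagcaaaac
GATAd highest peak (chr2L:10334971-10335071, + strand): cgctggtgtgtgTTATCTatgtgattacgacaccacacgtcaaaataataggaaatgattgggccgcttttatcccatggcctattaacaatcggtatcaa
srp highest peak (chr3R:15985851-15985951, + strand): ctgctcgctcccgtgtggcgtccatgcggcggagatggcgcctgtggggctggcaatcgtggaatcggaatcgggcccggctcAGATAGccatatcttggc
GATAe highest peak (chr3R:16011844-16011944, + strand): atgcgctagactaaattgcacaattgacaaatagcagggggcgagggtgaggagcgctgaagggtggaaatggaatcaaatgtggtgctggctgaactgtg
pnr only peak (chr3R:16025925-16026025, + strand): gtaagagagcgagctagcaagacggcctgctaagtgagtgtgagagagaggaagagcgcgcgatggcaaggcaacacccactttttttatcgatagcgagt
grn only peak (chr3R:8154108-8154208, + strand): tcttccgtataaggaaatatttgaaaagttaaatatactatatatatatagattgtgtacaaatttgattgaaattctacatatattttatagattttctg
Every capital run is a letter match and not a measured binding site. The window of the highest ush peak holds neither of these motifs, the GATAd window holds 1 GATA box on the reverse strand, and the srp window holds 1 on the forward strand. The window with paired GATA boxes holds 2 on the reverse strand, 1 to each side of its summit. The relative signal of that summit varied widely, with 0.248, 1.91 and 1.70 in replicates 1 to 3.

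**Figure D1:**
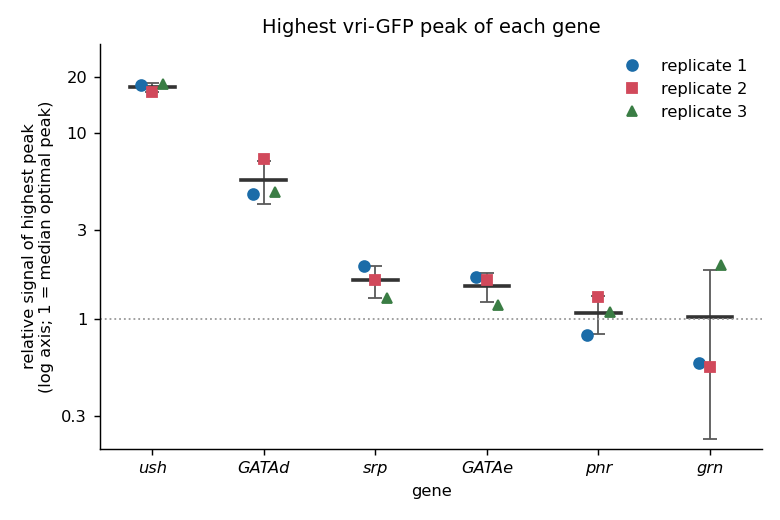
Relative signal of the highest optimal peak of each gene on a log axis, with 1 point per replicate, a horizontal bar for the mean and whiskers of 1 SD (n = 3). The dotted line at 1 is the median optimal peak. Replicates of ush lie between 16.5 and 18.2, those of GATAd between 4.69 and 7.27, and replicate 3 of grn (1.94) stands above its other replicates.

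All 6 genes had at least 1 optimal summit in the gene or within 1 kb, against 33.9% of all protein-coding genes. Long genes collect more summits, and 5 of the 6 genes were 10 kb or longer. Of all genes of that length, 61.7% had a summit, with a median of 1. At least 4 summits were found at 3 of the 6 genes (ush with 20, GATAd and GATAe with 4 each), against 5.44% of all genes. The other genes had 3 summits at srp and 1 each at pnr and grn. A summit lay within 1 kb of a transcription start of the gene itself at 5 of the 6 genes, against 27.5% of all genes, and grn was the exception. These shares touch values that were known when the genes were chosen, and are given as counts.

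**Figure D2:**
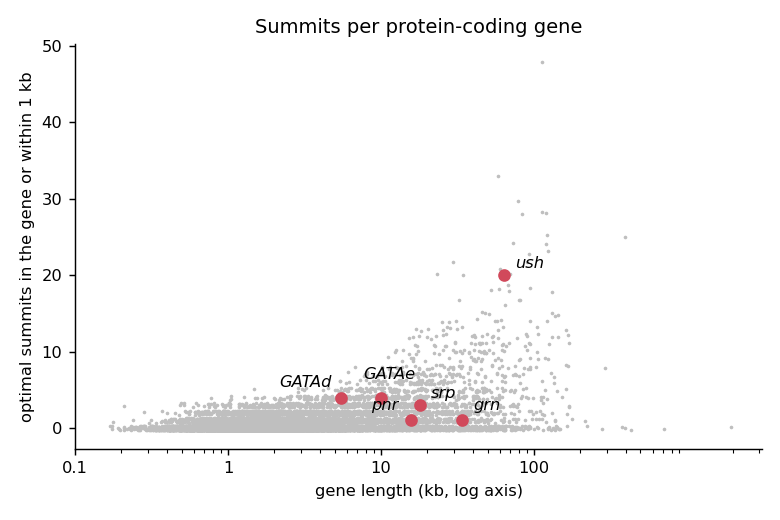
Number of optimal summits in or within 1 kb of each protein-coding gene against gene length in kb on a log axis. Grey points are all other genes, spread vertically by a small random amount so that they can be seen, and red points are the 6 genes. ush, with 20 summits over 64.3 kb, lies near the upper edge for its length, and grn has 1 summit over 34.1 kb.

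The ush gene (FBgn0003963, 2L, 476220 to 540560, forward strand) held the 3rd highest peak of any protein-coding gene. Its summit at 481056, in the peak chr2L:480543-481758, lay in intron 1 of the longest transcript, 4836 bp from the gene start. The relative signal there was 18.04 in replicate 1, 16.5 in replicate 2 and 18.2 in replicate 3. By signal this peak ranked 2nd, 4th and 2nd among the entries of these replicates. The replicates placed the summit within 15 bp of the pooled one, and the coefficient of variation was 5.44%. Its sequence is the first one printed above.

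In the order of genes by their highest peak, Pdp1, the activator of the same clock loop as Vrille, stood first at 20.7 ± 1.83, and vri itself stood next at 18.3 ± 1.80. The values at vri were 16.9, 20.3 and 17.7 in replicates 1 to 3, a range that overlapped with that of ush. CG12054 followed ush at 15.3 ± 2.24, with 14.4, 17.8 and 13.7, and also overlapped. CG11050 had 15.8, 11.7 and 14.5, below ush in all 3 replicates, and Pdp1 was above ush in all 3. The likeness is in the height of a single peak over 3 replicates.

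ush held 20 summits in 17 peaks. This is 3.01 summits per 10 kb, against a median of 0.527 over genes of 10 kb or more, among which ush ranked 170th of 1977. Counted by summits alone, 15 genes had more. The summits were uneven along the gene. Of the 20, 9 lay within 10 kb of the gene start, and the last 9 lay from 34.5 kb to 54.2 kb. Between these groups ran a gap of 17.3 kb with 11 pooled entries and no optimal summit, and the last 10.1 kb of the gene held no optimal summit. By annotation 18 summits were intronic and 2 lay in 5′ UTR exons of ush.

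Away from the highest summit, the 19 other ush summits had mean relative signals from 0.585 to 4.20. With each replicate entry counted once, the highest summit made up 38.4% of the signal summed over the ush summits in replicate 1, 31.2% in replicate 2 and 41.6% in replicate 3. It exceeded the next highest peak of the gene in the same replicate 4.07-fold, 3.40-fold and 4.97-fold. Of the 20 summits, 15 had a mean above 1, while the median over all optimal summits was 0.988.

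The next peak after it in height, chr2L:479507-480453, had 4.43, 4.85 and 3.32 in replicates 1 to 3 at its first summit, a mean of 4.20 ± 0.790. Its second summit, at 480031, had 4.43, 3.72 and 3.32. In replicates 1 and 3 both summits were matched to the same entry, so they are separate values in replicate 2 only. A distal peak in intron 2, chr2L:530251-530609, 54.2 kb from the gene start, had 4.01, 3.14 and 3.67, a mean of 3.61 ± 0.440. It was the strongest of the 9 summits in the distal group, and the summit at 510753 was next with 2.09, 2.31 and 1.73. The summits at 484694 and 484893, in 1 peak, were matched to the same entry in replicate 3. The summit at 484893, whose window holds the paired GATA boxes, ranked 19602nd in replicate 1. Its coefficient of variation was 70.4%. The summit at 485871, in the proximal group, had 3.39, 3.39 and 2.38.

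Both 5′ UTR summits lay close upstream of alternative ush starts. The summit at 490756, 79 bp upstream of the start of ush-RB, had 1.90, 2.41 and 2.01 in replicates 1 to 3, a mean of 2.11 ± 0.268. It and the summit at 493427 also lay within 1 kb of the long noncoding RNA gene lncRNA:CR46258. The summit at 523694, 42 bp upstream of the start of ush-RC, had no matching entry in replicate 1 and had 1.19 and 0.609 in replicates 2 and 3. It was the only one of the 33 summits not matched in all 3 replicates. At the outermost start of ush no optimal peak was found, and a pooled entry 160 bp downstream of it ranked 17138th.

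Several ush summits also belong to another gene. Cabut (cbt), a gene for a zinc-finger transcription factor, lies on the reverse strand inside intron 1 of ush, from 476446 to 479688. It had 4 summits in the gene or within 1 kb, all of them also counted at ush, the highest at 4.20 ± 0.790. Those at 478856 and 479056, intronic for ush, lay in 5′ UTR exons of cbt. The coding start nearest to the highest ush summit was that of cbt, 1368 bp away, while the nearest ush start was 4836 bp away. Of the 20 ush summits, 8 were nearest to the cbt start. Which gene the peak acts on, if any, was not tested. Without these 8, the 6 genes held 25 summits.

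**Figure D3:**
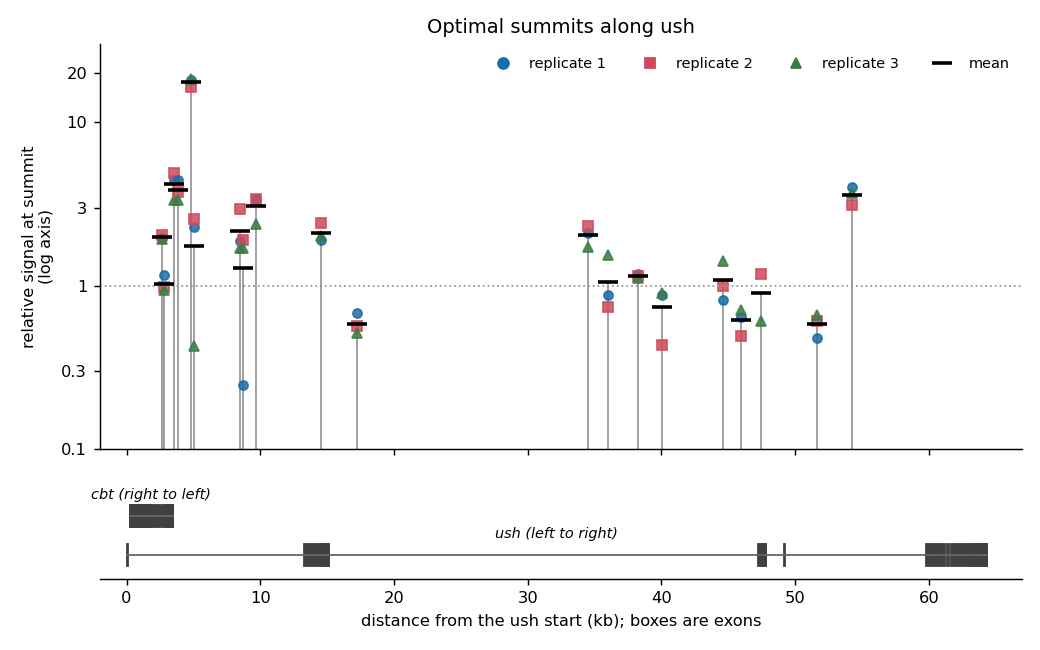
Optimal summits along ush, with distance from the gene start in kb and relative signal on a log axis; points are replicates, black bars are means, and the dotted line at 1 is the median optimal peak. The lower panel gives exons of ush and of cbt, which runs the opposite way. The summit with a mean of 17.6 lies just beyond the cbt start, and the strongest distal summit has a mean of 3.61.

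GATAd (FBgn0032223, 2L, 10333734 to 10339185, forward strand), at 5452 bp the shortest of the 6 genes, had the second highest occupancy. Its strongest summit, at 10335021 in the peak chr2L:10334789-10335343, lay in intron 1, 1107 bp downstream of the start of GATAd-RA. It had 4.69 in replicate 1, 7.27 in replicate 2 and 4.78 in replicate 3. Replicate 2 was the highest, and the peak ranked 229th, 70th and 203rd in these lists.

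A second summit of the same GATAd peak, at 10335221, had 1.18 in replicate 2. In the other replicates it was matched to the entry of the first summit, so it has no value of its own there. The summit at 10333799 lay in the GATAd 5′ UTR, 65 bp from the gene start and within 1 kb of Cox10, a gene for a mitochondrial assembly factor, and had 0.450, 0.621 and 0.727. The summit at 10339468, downstream of GATAd, had 0.840, 0.827 and 0.846. It lay in the 5′ UTR of SamDC, the gene for S-adenosylmethionine decarboxylase, 11 bp from that gene's start. Of the 6 pooled entries at GATAd, 66.7% were optimal, against 30.9% of all pooled entries. GATAe had the same share of its 6 entries, and the share was 37.0% at ush, 30% at srp and 33.3% at pnr.

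srp, GATAe and pnr lie in this order on 3R, all on the forward strand, over 55.6 kb. None of the 10 optimal summits in this span or within 1 kb of it exceeded a mean of 1.61. Of these, 8 were credited to the 3 genes, and the other 2, with means of 1.11 and 0.756, lay between srp and GATAe in the long noncoding RNA gene lncRNA:CR42839. The gap of 6945 bp between GATAe and pnr held no optimal summit beyond 1 kb of either gene. Summits more than 1 kb outside the span were not counted, and with 2 kb around the gene srp had 7 summits.

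At srp (FBgn0003507, 3R, 15986152 to 16004085), 2 summits stood just upstream of the outermost start and 1 beyond the 3′ end, with none inside the gene. The summit at 15985901, 251 bp upstream of the start of srp-RD, had 1.93, 1.62 and 1.29 in replicates 1 to 3. The summit 52 bp upstream had 1.07, 1.62 and 0.318. In replicate 2 both were matched to 1 entry, and replicate 3 was the lowest at both. Both also lay within 1 kb of the long noncoding RNA gene lncRNA:CR44133, and the summit beyond the 3′ end lay within 1 kb of lncRNA:CR42839. Of the 9264 optimal summits, 63.5% lay among the 9264 highest entries of all 3 replicates, and at srp only the summit 251 bp upstream did. Downstream, at 16004175, the relative signal was 0.495, 0.163 and 0.754, below 1 in every replicate.

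GATAe (FBgn0038391, 3R, 16009105 to 16019133) had its strongest summit at 16011894, in intron 1 and 380 bp upstream of the start of GATAe-RA. It had 1.67, 1.62 and 1.19 in replicates 1 to 3, all above the median optimal peak. A summit 174 bp upstream of the same start had 0.774, 0.851 and 0.925, and one in the 5′ UTR, 211 bp from the gene start, had 0.794, 1.30 and 0.937. The last GATAe summit, at 16014765, had the lowest pooled signal of all optimal peaks, with 0.689, 0.564 and 0.343. Its pooled signal of 108.273 lay just inside the threshold, and that of the next pooled entry, 108.271, just outside.

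The single pnr summit (FBgn0003117, 3R, gene from 16026079 to 16041796) lay at 16025975, 104 bp upstream of the start of pnr-RD. It had 0.814, 1.31 and 1.09 in replicates 1 to 3. The values lay on both sides of the median optimal peak, with replicate 1 lowest. No other optimal summit was found over the 15.7 kb of pnr.

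**Figure D4:**
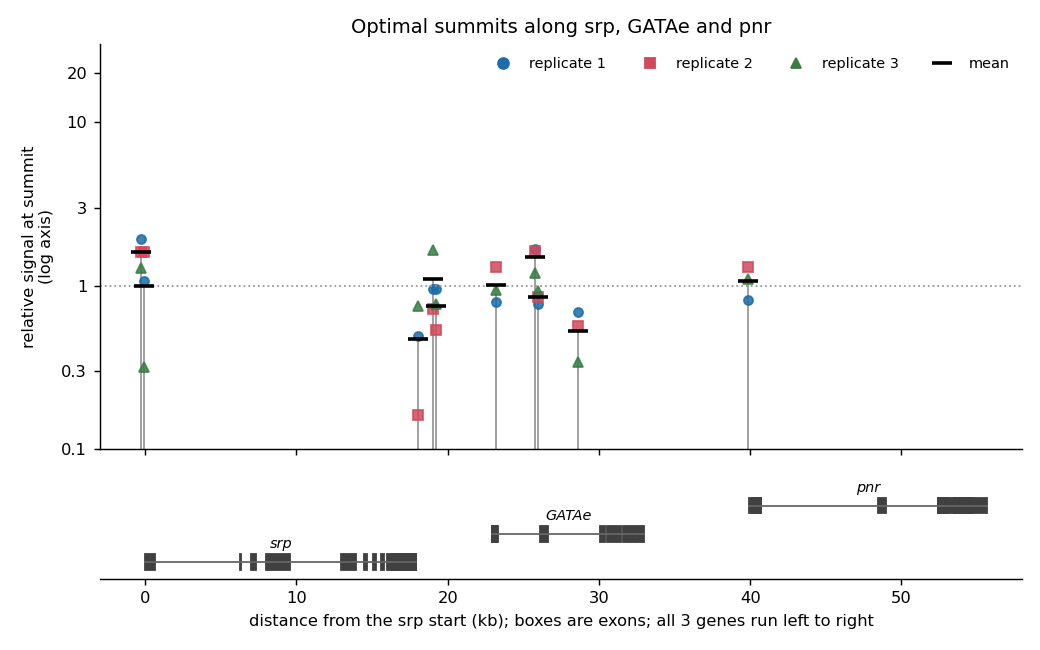
Optimal summits along srp, GATAe and pnr, with distance from the srp start in kb and relative signal on a log axis; points are replicates, black bars are means and the dotted line at 1 is the median optimal peak. Boxes in the lower panel are exons. Only summits between the srp start and the pnr end, or within 1 kb of this span, are drawn. The highest mean is 1.61, just upstream of srp, and 2 summits between srp and GATAe belong to neither.

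grn (FBgn0001138, 3R, 8147368 to 8181444, reverse strand) had many weak entries and only 1 optimal summit. At 8154158, in intron 5 and 27.3 kb from the gene start, it had 0.577, 0.548 and 1.94 in replicates 1 to 3, ranks 9434, 9752 and 1612. Replicate 3 was more than 3 times as high as the others, and the mean without it was 0.563, against 1.02 with all 3. Of 22 pooled entries at grn, 4.55% were optimal, against 30.9% of all pooled entries. The entry nearest to the grn start, 159 bp upstream, stood just outside the threshold at rank 9827, with 0.391, 0.610 and 0.601. In replicate 3, 4 grn entries were among the 9264 highest, against 0 in replicate 1 and 1 in replicate 2. At srp the entry just outside the threshold, at 15997979, ranked 9520th with 0.542, 0.394 and 0.453.

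The spread between replicates at the 33 summits is given beside that of the whole optimal list. All 3 replicates had a matching entry at 32 of 33, and 21 of 33 were among the 9264 highest entries of every replicate, 63.6% against the 63.5% of all optimal summits. These 21 were 13 at ush, 3 each at GATAd and GATAe, 1 each at srp and pnr and 0 at grn. At 8 of the 33 summits an entry was shared with a neighbouring summit in at least 1 replicate, and 6 of these 8 were among the 21. Without such summits 15 of 25 were among the highest in every replicate, 60%, against 63.4% of all optimal summits with no shared entry. The median coefficient of variation was 19.9% over the 33 summits and 23.7% over all. The median distance between the replicate and pooled summits was 23 bp against 16 bp. A mean above 1 was found at 23 of 33 summits, 15 of them at ush, and the median was 1.08 against 0.988.

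**Figure D5:**
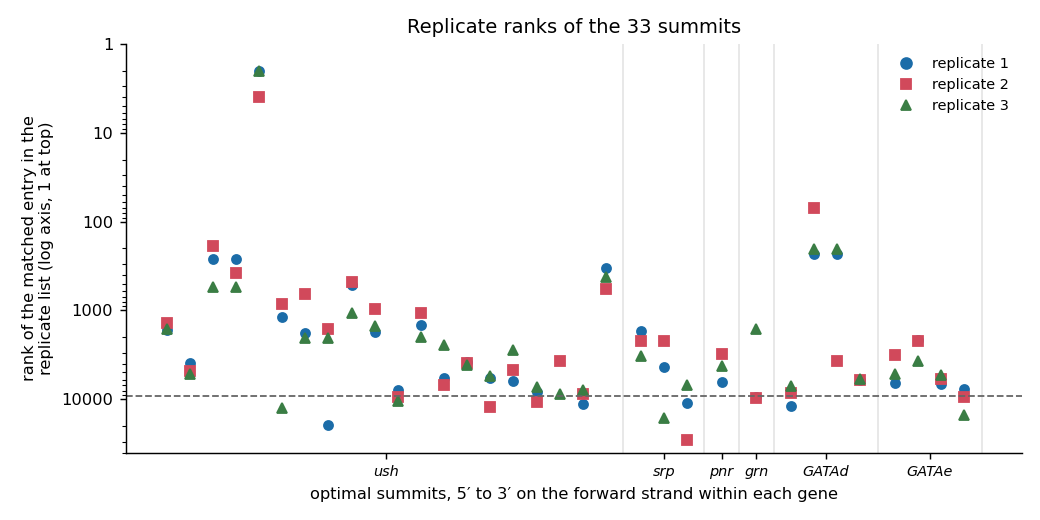
Rank by signal of the entry matched to each of the 33 summits in each replicate list, on a reversed log axis with rank 1 at the top; summits are ordered by position within each gene. The dashed line is rank 9264, the size of the optimal list. The highest ush summit ranks 2nd, 4th and 2nd, and the grn summit lies above the line in replicate 3 only.

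The summits were also described by annotation and bases, which did not enter the choice of genes. Position in a gene or within 1 kb of it did decide which summits were credited. The annotation counts are therefore shaped by that rule, unlike those of all optimal summits. Of the 33, 24 lay in introns, 4 in 5′ UTR exons, 3 upstream and 2 downstream of their gene. Of the 24 intronic summits, 18 were at ush, so this split largely describes 1 gene. Within 1 kb of any coding start lay 14 of 33, against 49.1% of all optimal summits. Peak widths had a median of 440 bp in both sets. The windows of 50 bases to each side had a median GC content of 46.5%, against 40.6% over all optimal summits.

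A GATA box within 50 bp of the summit was present at 12 of 33 summits, 36.4% (exact binomial 95% interval 20.4 to 54.9%), against 26.6% of all optimal summits. These were 5 at ush, 3 at GATAd, 2 at srp, 2 at GATAe and none at pnr or grn. The interval held the share of the whole list. It treats the summits as independent, which summits of 1 gene are not, and is therefore too narrow. Within 25 bp the count was 6 of 33, against 14.6%.

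The VP box is a bZIP site of the Vrille and Pdp1 type, searched as TTATGTAA or TTACGTAA on both strands. It was present within 50 bp at 0 of 33 summits, against 2.34% of all optimal summits. The exact 95% interval allows a share of up to 10.6%, but it also treats the summits as independent and is too narrow. Within 3 kb a VP box was found at 5 of 33 summits, against 41.9% of all optimal summits. Within the same distance a C/EBP site was found at 14 of 33, against 30.8%. Windows of this size overlap between neighbouring summits of 1 gene, so these 2 counts are not of independent windows. The letters of the VP box include TTACGTAA, which is also in the C/EBP set. A C/EBP site was present within 50 bp at 1 of 33, against 1.96%, at the ush summit 514495. There the summit lay inside the site, and the relative signal was 1.18, 1.14 and 1.11. Around the highest ush summit the nearest C/EBP site was centred about 128 bp away and the nearest GATA box 322 bp away. No VP box was centred within 3 kb of it. An absent match says only that these letters are not in the window.

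Genes that work with these factors were counted from lists of partners and of tissue genes. Of 13 partner genes of Ush and the GATA factors, 10 had a summit (76.9%, against the 33.9% of all genes), with a median highest peak of 1.17, against 1.37 over all genes with a summit. The median length of these 13 genes was 10084 bp, against 2166 bp over all genes, and 61.7% of all genes of 10 kb or more had a summit. Counted inside the gene alone, 6 of the 13 had a summit, against 18.8% of all genes, and with the stronger 50% of optimal peaks 6 of the 13, against 23.9%. Mi-2, the ATPase of the NuRD chromatin remodelling complex, had 13 summits and a highest mean of 5.45 ± 0.735, at a summit also within 1 kb of Su(Tpl). CtBP, a corepressor, had 8 summits and 5.16 ± 0.644, and simj, a NuRD subunit, had 8 summits and 3.22 ± 1.71. CoRest, a corepressor of histone demethylase complexes, had 1.35 ± 0.0873, at a summit also within 1 kb of Idh3a. At some partner genes not named here the highest summit was also within 1 kb of another gene. No summit was found at Chi, Caf1-55 or Su(var)3-3.

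Genes of the tissues in which the factors act were counted in the same way, against the same 33.9% of all genes. A summit was found at 4 of 16 blood cell genes (25%), 6 of 16 heart and dorsal thorax genes (37.5%) and 8 of 16 midgut genes (50%). The midgut list also held Dl, a symbol that matched both Delta and dl and was left out of the count, and Delta, the Notch ligand gene, had 2 summits. It was found at 4 of 14 fat body genes (28.6%) and 5 of 10 posterior spiracle and motor axon genes (50%). The median length of this last list was 21370.5 bp, and 61.7% of all genes of 10 kb or more had a summit. Inside the gene alone, where all genes gave 18.8%, the counts were 3 blood cell, 3 heart and thorax, 3 midgut, 1 fat body and 5 spiracle and motor axon genes. With the stronger 50% of peaks, where all genes gave 23.9%, they were 3, 4, 3, 1 and 5 in the same order. Median highest peaks of these lists ran from 0.688 in the fat body list to 1.34 in the heart and thorax list, all below the 1.37 of all genes with a summit. Crumbs (crb), an apical polarity gene, was the highest of them at 5.44 ± 0.999. Among the rest, the heart gene tinman (tin) had 2.35 ± 1.46, the gut gene fork head (fkh) 2.23 ± 0.128 and the glial and blood gene gcm2 2.01 ± 0.394, the last at a summit also within 1 kb of Trx2. The midline receptor gene fra had 1.69 ± 0.0849, and the larval serum protein gene Lsp1gamma, the highest in the fat body list, had 1.07 ± 0.236. These named genes are among the highest of their lists, and many list members had no summit. Among those without were Hml, Pxn, eater and NimC1 in the blood cell list and Hand, mid and H15 in the heart and thorax list. The midgut genes lab and esg and the fat body genes Fbp1 and Lsp2 also had none.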

How the data were processed

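The signal values are those of the narrowPeak lists the authors deposited on dm6, and are not scaled between libraries. Per the submitters' note files, the replicate and pooled lists (peaks with background) fed an irreproducible discovery rate step, which gave the optimal list. Not given in the sources used here are aligner, peak caller and threshold. Per the labels, chromatin was sonicated to 200 to 800 bp. The lists hold no read counts, so depth is unknown and signal has no counting interval.

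Each optimal summit was matched to the overlapping replicate entry (at least 1 bp) with the nearest summit. All 9264 optimal peaks are the highest of the 30000 pooled entries, and 97.6% matched in all 3 replicates. Genes came from Ensembl release 115 and bases from RefSeq. Coordinates are 1-based. The text names the 6 genes, genes sharing their summits or nearest start, up to 4 genes per list, and the 2 genes next to ush on each side by highest peak. The neighbours of list genes, Delta and the list members without a summit were named for their counts after these were seen. The members and lists were chosen with earlier results of these data known. No p-values were computed, and the replicates give the spread between 3 libraries. Matching and motif search were tested on simulated data. Python 3.11.15, NumPy 2.4.6, pandas 2.3.3, SciPy 1.17.1 and matplotlib 3.10.9 were used. Alternatives changed the window, list strength, annotation, matching, motif window and replicates. Those of the highest-signal entry, of shared entries, of summits near cbt and of the lists were chosen after seeing the data.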

Additional observations from a re-analysis of the deposited data

How the results depend on the processing

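Of 74 alternatives computed, 64 stayed within the limits and 10 moved, with 0 reversed. A signal or count without a contrast cannot reverse, so the last number carries no information. Alternatives that left out a replicate kept the optimal list made from all 3. The limit was 1 SD between replicates for a signal and 1.5 times for a count, so a shift is judged against its own spread, which was wide at grn and narrow at ush. The 33 summits at the 6 genes became 28 with no window around the genes, 37 with 2 kb (srp then had 7), 22 among the stronger 50% of optimal peaks and 23 by nearest start. Without a window srp and pnr had 0. The highest ush peak was 16.2 when the overlapping entry of highest signal was taken and 18.8 in the pooled list. The count of summits with a GATA box was 6 within 25 bp, where the window is shorter by construction. The other moved counts were of list genes with a summit. With no window they were 6 partner genes, 1 fat body gene, 3 heart and thorax genes and 3 midgut genes, while all genes went from 33.9% to 18.8%. Among the stronger 50% of peaks they were 6 partner, 1 fat body and 3 midgut genes, while all genes went to 23.9%. No paired analysis was possible because there was 1 group and no test. The lists give no read counts, so no depth limit can be set for weak entries such as those at grn.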
